A study of Homo sapiens with 6 samples.

Results

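ATG8 proteins are small ubiquitin-like proteins that are attached to the lipid of a growing autophagosome membrane, and ATG4 proteases prepare them for this step and later take them off again. The table of RNA levels was searched for rows whose gene symbol equals 1 of 10 names: the ATG8 genes MAP1LC3A, MAP1LC3B, MAP1LC3B2, GABARAP, GABARAPL1 and GABARAPL2, and the protease genes ATG4A, ATG4B, ATG4C and ATG4D. All 10 were found among 17911 rows. RNA came from HL-60, an established human promyelocytic leukaemia line, with 3 libraries labelled control and 3 from cells given amiodarone, an antiarrhythmic drug, at 10 uM for 24 h. The labels do not say whether the control cells received a vehicle. Nor do they name separate cultures as the source of the libraries. The p-values therefore reflect no more than the library-to-library spread, and this may be technical. The series title concerns amiodarone as a SIRT3 activator and autophagic cell death, and the comparison asks how the RNA of the ATG8 and ATG4 genes differed after the drug.

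Newly made ATG8 protein carries extra residues after a glycine near its end. ATG4 cuts behind that glycine, and the exposed glycine is then passed from the activating enzyme ATG7 to the conjugating enzyme ATG3 and onto phosphatidylethanolamine, with a complex of ATG12, ATG5 and ATG16L1 as the ligase. LC3 proteins, encoded by the MAP1LC3 genes, and GABARAP proteins form separate subfamilies, and both bind cargo receptors and transport factors that carry a short LC3-interacting motif. RNA levels measure neither the processing nor the lipidation of these proteins, and in bulk RNA fewer cells of a type and less RNA per cell cannot be told apart.

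The coding ends of the ATG8 genes show where ATG4 acts, and they are given here 5′ to 3′ to the stop codon. The glycine codon is in capitals, taken as the last one that follows a phenylalanine or tyrosine codon (GENCODE 29 transcripts, GRCh38).
MAP1LC3A: gcctcccaggaaaccttcGGCttctga
MAP1LC3B: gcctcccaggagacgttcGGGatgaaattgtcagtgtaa
MAP1LC3B2: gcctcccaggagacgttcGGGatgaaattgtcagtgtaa
GABARAP: agtgacgaaagtgtctacGGTctgtga
GABARAPL1: agtgatgagagtgtctatGGGaaatga
GABARAPL2: agcggagagaacacttttGGCttctga
The glycine was codon 120 in the 3 MAP1LC3 members and codon 116 in the 3 GABARAP members. MAP1LC3B and MAP1LC3B2 had 5 codons behind it and the other 4 had 1. MAP1LC3C, a further ATG8 gene that is not among the 10, had 21. The coding sequences of the proteases were longer, with 398 codons in ATG4A, 393 in ATG4B, 458 in ATG4C and 474 in ATG4D.

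MAP1LC3B (chromosome 16, 87383995 to 87404779, plus strand, GRCh38) and MAP1LC3B2 (chromosome 12, 116548105 to 116576448, plus strand) are the closest pair, with 99.5% identical coding bases. They differ by the substitutions C30G and A338G, with MAP1LC3B first and positions counted from the first base of the start codon. The stretch around the second difference, coding bases 318 to 358, is shown because a read from it differs at 1 base between the genes, with the differing base in capitals.
MAP1LC3B: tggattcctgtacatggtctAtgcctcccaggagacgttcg
MAP1LC3B2: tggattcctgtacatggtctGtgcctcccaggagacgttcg
Stretches of 50 bases shared with the other gene made up 43.4% of the MAP1LC3B2 transcript sequence and 10.0% of that of MAP1LC3B. How the authors treated reads that fit several genes is not given in the sources used here, so the split between these 2 genes is uncertain. All other pairs of ATG8 members were further apart, at 76.8% identity for GABARAP and GABARAPL1, 64.3% for GABARAP and GABARAPL2, and 71.8% for MAP1LC3A and MAP1LC3B. Among the proteases, ATG4A and ATG4B were 61.3% identical, ATG4C and ATG4D 51.0%, and the other pairs 45.3% to 49.3%.

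The values behave like RPKM, that is, reads scaled by gene length and library depth, although the file does not name their unit. They are called RPKM-like values here. Steps among low values give an estimated depth of 16300000 to 18400000 reads or fragments in a library, and 11129 to 11323 genes per library stood at 1 or more. Libraries of 1 group correlated at 0.9975 to 0.9982 over log2 values and libraries of different groups at 0.959 to 0.960, and none stood apart from its group. All 7 promyelocyte markers were present, and their summed value was 7130 to 7240 in controls and 3110 to 3170 after amiodarone. Of 4 T cell markers 2 reached a value of 1 in any library (summed 2.45 to 3.53 in controls, 4.89 to 5.03 after amiodarone). Of 3 listed B cell markers, 2 did (12.4 to 12.8, then 9.7 to 10.4), of 3 monocyte markers 1 (1.41 to 1.85, then 1.35 to 1.88), and of 4 epithelial markers 2 (2.41 to 2.6, then 1.87 to 2.65). The 2 erythroid and 3 fibroblast markers in the table stayed below 1, with summed values of 0.06 at most and 0.7 at most, and no marker was at 0 in all libraries. The part of these marker changes in the results below was not tested.

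Amiodarone libraries held more RNA of GABARAPL1, MAP1LC3B and ATG4A and less of ATG4B, and the other tested members did not pass the test. GABARAPL1 moved most, to 2.52 times its control level, while GABARAP, by far the most abundant ATG8 RNA, had a ratio of 1.04 and was not called. Of the 10 members, 8 reached 1 or more in 3 or more libraries and were tested with limma on log2(value + 1), with Benjamini-Hochberg adjustment over all 11445 tested genes and a threshold of 0.05. On this rule 3 were higher, 1 was lower and 4 were not called. Change was the rule in this table: 78.3% of all tested genes were called, 33.5% as higher and 44.8% as lower, and in 79.3% the 2 groups did not overlap. The groups did not overlap in 5 of the 8 tested members. On the values as deposited the members were thus called, and kept apart between groups, no more often than the table at large. Their share of higher calls, 3 of 8, was near that of all genes. This count depends on scaling. With values scaled by the median of ratios, GABARAP and GABARAPL2 were called higher as well (limma, adjusted p = 7.52e-04 and 0.0356). The median log2 fold change was 0.05 over the 8 tested members and -0.06 over all tested genes.

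**Figure D1:**
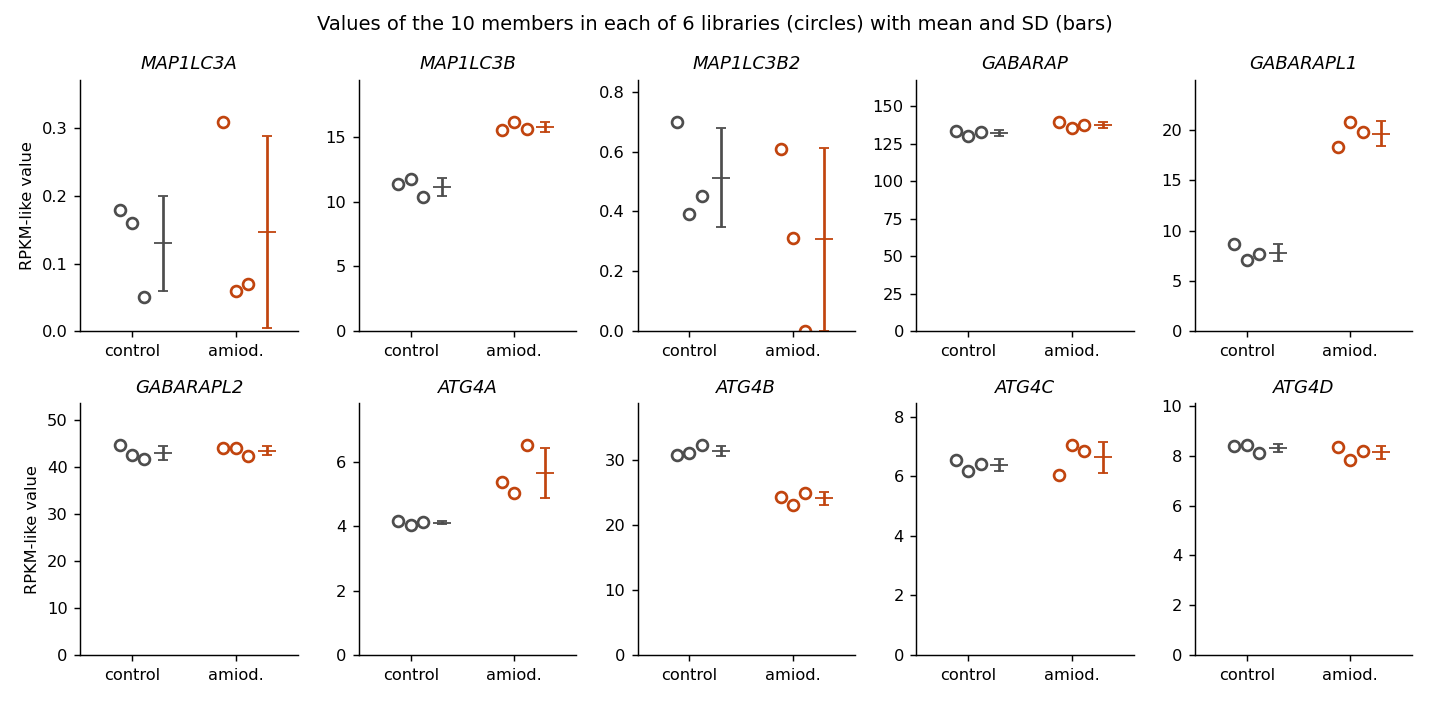
RPKM-like value (y axis, starting at 0, a scale of its own per gene) of the 10 members in the 3 control and 3 amiodarone libraries. Circles are libraries and bars are the mean with SD; the circles of GABARAPL1, MAP1LC3B, GABARAP and ATG4A lie higher and those of ATG4B lower after amiodarone, with no overlap, while MAP1LC3A and MAP1LC3B2 lie under 1 throughout.

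GABARAPL1 (chromosome 12, 10212458 to 10223130, plus strand), a GABARAP subfamily member first described as an oestrogen-regulated gene, had RPKM-like values of 8.7, 7.05 and 7.64 in the control libraries. The amiodarone libraries held 18.32, 20.83 and 19.77. Every amiodarone library was more than double the highest control, and the spread within each group was small beside the gap. Group means were 7.80 ± 0.836 and 19.6 ± 1.26 (SD, n = 3 each), and the log2 fold change was 1.23 with SE 0.069 (limma, adjusted p = 3.32e-08). Over all tested genes, 2.38% moved at least as far in either direction and 1.33% rose at least as far. By the estimated depth these values stand for about 254 to 673 reads per library. Exons of an antisense gene covered 8.1% of its exonic bases.

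MAP1LC3B, which encodes the LC3 protein most often followed as an autophagosome marker, had RPKM-like values of 11.35, 11.71 and 10.38 in controls and 15.53, 16.16 and 15.56 after amiodarone. The groups did not overlap, and the 3 amiodarone values lay close together. The mean rose from 11.15 ± 0.688 to 15.75 ± 0.355 (SD, n = 3 each), a ratio of 1.41, with a log2 fold change of 0.47 and SE 0.048 (limma, adjusted p = 5.26e-06). A change of this size was common, since 31.3% of tested genes moved at least as far. Its near copy MAP1LC3B2 had values of 0.7, 0.39 and 0.45 in controls and 0.61, 0.31 and 0 after amiodarone.

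GABARAP (chromosome 17, 7240014 to 7242770, minus strand), the founding member of its subfamily, stood at 133.4, 130.05 and 132.89 in controls and at 139.77, 135.33 and 137.49 after amiodarone. The 3 amiodarone libraries were all above the 3 controls, but only just. The mean moved from 132.1 ± 1.81 to 137.5 ± 2.22 RPKM-like units (SD, n = 3 each), a log2 fold change of 0.06 with a 95% interval of 0.003 to 0.112 (limma, adjusted p = 0.0501), which missed the threshold. The call depended on scaling and on 1 library. With values scaled by the median of ratios the log2 fold change was 0.13 (limma, adjusted p = 7.52e-04), with equal sums per library it was -0.03 (adjusted p = 0.244), and without amiodarone replicate 2 it was 0.07 (adjusted p = 0.047). Another annotated gene on the same strand, AC120057.2, shares 30.5% of the exonic bases of GABARAP, and 25.2% lie opposite AC120057.3.

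GABARAPL2 (chromosome 16, 75566351 to 75577881, plus strand), also known as GATE-16 and first studied in Golgi transport, had RPKM-like values of 44.59, 42.62 and 41.73 in controls and 43.98, 44.09 and 42.39 after amiodarone. The groups overlapped. The log2 fold change was 0.02 with a 95% interval of -0.058 to 0.091 (limma, adjusted p = 0.661). It was 0.09 under the median of ratios (adjusted p = 0.0356), -0.07 under equal sums (adjusted p = 0.071) and -0.004 without control replicate 3 (adjusted p = 0.936), so no direction can be given.

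MAP1LC3A (chromosome 20, 34546854 to 34560345, plus strand) was close to absent, at 0.18, 0.16 and 0.05 in controls and 0.31, 0.06 and 0.07 after amiodarone, which is about 1 to 8 reads. MAP1LC3B2 stood for about 0 to 8 reads, and amiodarone replicate 3 was listed at 0. Neither passed the filter on low values, and the groups of both overlapped, so a difference was not detectable at this depth. MAP1LC3C (chromosome 1, 241995490 to 241999073, minus strand), the further ATG8 gene, had 0.51, 0.41 and 0.53 in controls and 0.99, 1.28 and 1.04 after amiodarone. These values, about 9 to 25 reads, did not overlap, but with only 2 libraries at 1 or more the gene was under the filter. Without a filter its log2 fold change was 0.50 (limma, adjusted p = 0.000469). In the same fit MAP1LC3A had 0.016 (limma, adjusted p = 0.89) and MAP1LC3B2 -0.233 (adjusted p = 0.282). Of the 50-base stretches of the MAP1LC3C transcript, 7.7% also occur in transcripts of other genes, which adds uncertainty to its few reads.

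The order of the ATG8 levels, which are per length, was GABARAP, GABARAPL2, MAP1LC3B and GABARAPL1 in controls, with no overlap between neighbours across the 3 libraries. After amiodarone GABARAPL1 stood above MAP1LC3B in every library, again without overlap, and the first 2 kept their places. GABARAPL1 made up 3.99% ± 0.351 of the summed ATG8 values in controls and 9.01% ± 0.613 after amiodarone (SD, n = 3 each). The share of MAP1LC3B went from 5.71% ± 0.364 to 7.23% ± 0.17, while that of GABARAP went from 67.7% ± 0.868 to 63.1% ± 0.9 and that of GABARAPL2 from 22.36%, 22.15% and 21.55% in the 3 controls to 20.04%, 20.22% and 19.6%. The sum itself was 195 ± 3.75 in controls and 218 ± 1.6 RPKM-like units after amiodarone. Of the 50-base stretches of the GABARAP transcript, 40.6% also occur in the overlapping gene AC120057.2, so the level and share of GABARAP carry an uncertainty from how such reads were counted. By the values as deposited, GABARAP held the largest share in both groups.

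**Figure D2:**
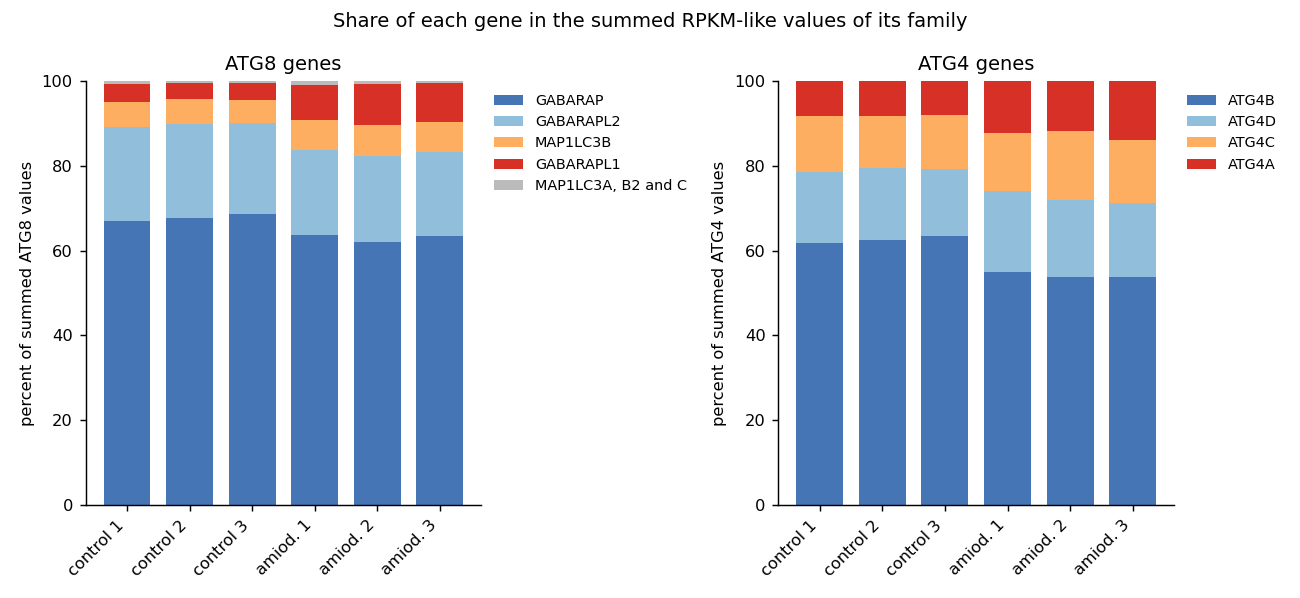
Share in percent (y axis) of each gene in the summed RPKM-like values of the ATG8 genes (left, MAP1LC3C included) and of the ATG4 genes (right), 1 bar per library. GABARAPL1 takes 3.99% of the ATG8 sum on average in controls and 9.01% after amiodarone, and ATG4A takes 8.2% and 12.6% of the ATG4 sum.

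ATG4B (chromosome 2, 241637213 to 241673857, plus strand), the family member with the broadest activity on ATG8 proteins, was the most abundant protease RNA, at 30.85, 31.11 and 32.31 in controls. After amiodarone its RPKM-like values were 24.27, 23.08 and 25.03, all below the lowest control. The mean fell from 31.4 ± 0.779 to 24.1 ± 0.983 (SD, n = 3 each), a ratio of 0.77 and a log2 fold change of -0.37 with SE 0.038 (limma, adjusted p = 5.1e-06). Of all tested genes, 24.3% fell at least as far.

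ATG4A (chromosome X, 108091668 to 108154671, plus strand), known to act best on GABARAP subfamily proteins, went the other way. It had RPKM-like values of 4.16, 4.05 and 4.14 in controls and 5.39, 5.03 and 6.52 after amiodarone. The controls were nearly equal, the amiodarone libraries were all higher, and replicate 3 stood above the other two. Means were 4.12 ± 0.0586 and 5.65 ± 0.777 (SD, n = 3 each), a ratio of 1.37 and a log2 fold change of 0.37 with SE 0.077 (limma, adjusted p = 0.00104). Without amiodarone replicate 3 the log2 fold change was 0.28 and the call held. Of all tested genes, 17.4% rose at least as far.

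The proteases ATG4C and ATG4D, whose full-length forms are known to be weakly active until trimmed, did not pass the test. ATG4C (chromosome 1, 62784135 to 62865513, plus strand) had 6.55, 6.17 and 6.42 in controls and 6.05, 7.04 and 6.84 after amiodarone, with overlap. ATG4D (chromosome 19, 10543895 to 10553418, plus strand) had 8.38, 8.42 and 8.11 in controls and 8.37, 7.84 and 8.19 after amiodarone, also with overlap. Their log2 fold changes were 0.05 (95% interval -0.083 to 0.180) and -0.03 (-0.129 to 0.075), with limma adjusted p-values of 0.469 and 0.608. The sign of each turned under another scaling, to -0.03 for ATG4C with equal sums and to 0.04 for ATG4D with the median of ratios. Exons of KRI1 lie opposite 15.0% of the exonic bases of ATG4D.

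In both groups the order of the ATG4 levels per length was ATG4B, ATG4D, ATG4C and ATG4A. No neighbours overlapped in controls, and ATG4C and ATG4A overlapped after amiodarone. ATG4B took 62.6% ± 0.802 of the summed ATG4 values in controls and 54.2% ± 0.779 after amiodarone, and ATG4A took 8.2% ± 0.115 and 12.6% ± 1.2 (SD, n = 3 each). The sum went from 50.2 ± 0.662 to 44.5 ± 1.84 RPKM-like units. Thus the summed ATG8 values were higher and the summed ATG4 values lower after amiodarone.

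**Figure D3:**
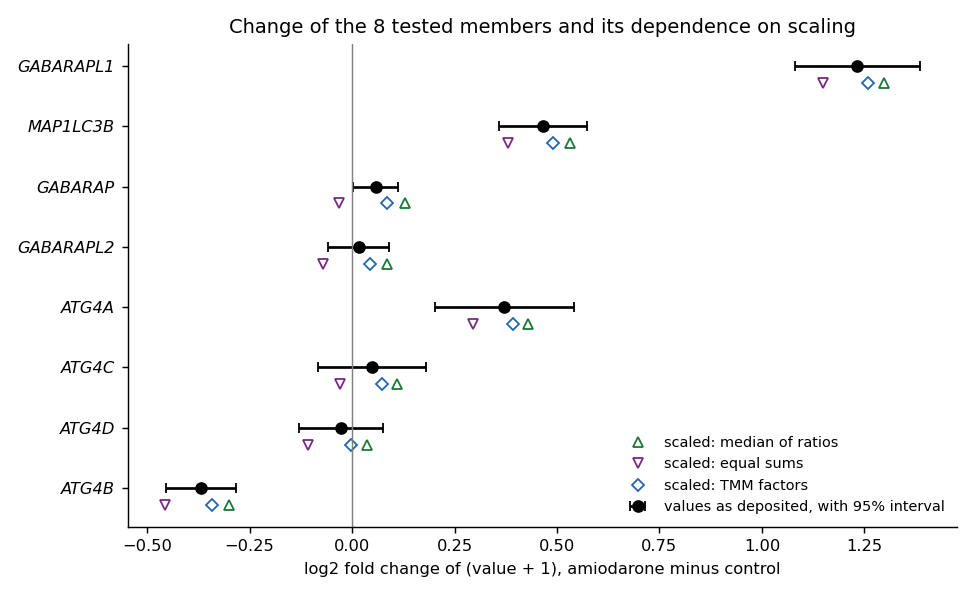
Log2 fold change of (value + 1), amiodarone minus control (x axis), of the 8 tested members: black points are the values as deposited with 95% intervals, and open symbols are the estimates after 3 other scalings. GABARAPL1, MAP1LC3B and ATG4A stay above 0 and ATG4B below 0 under each scaling, whereas GABARAP, GABARAPL2, ATG4C and ATG4D have estimates on both sides of 0.

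Ratios of 2 members within a library do not depend on how libraries are scaled to each other. In 12 such pairs within the families, 10 had no overlap between groups, where 79.3% of single genes had none. The share among other gene pairs was not computed, and the 12 pairs reuse the same genes and so are not independent. GABARAPL1 over MAP1LC3B was 0.767, 0.602 and 0.736 in controls and 1.18, 1.29 and 1.27 after amiodarone, a log2 difference of 0.84. The ratio passed 1 in every amiodarone library and in no control. Against GABARAP and GABARAPL2 the log2 ratio of GABARAPL1 was higher by 1.28 and 1.32, and that of MAP1LC3B by 0.44 and 0.48. GABARAP over GABARAPL2 was 2.99, 3.05 and 3.18 in controls and 3.18, 3.07 and 3.24 after amiodarone, which overlap.

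Among the proteases, ATG4A over ATG4B was 0.135, 0.130 and 0.128 in controls and 0.222, 0.218 and 0.260 after amiodarone, a log2 difference of 0.83. The change was larger for this pair than for either gene against ATG4C or ATG4D. That follows from the opposite changes of ATG4A and ATG4B given above and is no separate result. ATG4A over ATG4C and over ATG4D had log2 differences of 0.39 and 0.48, and ATG4B over these genes -0.44 and -0.35. ATG4C over ATG4D overlapped. The 10 pairs without overlap had p = 0.1 each in a two-sided exact permutation test, the smallest p that 3 libraries against 3 allow (0.12 adjusted over the 12 pairs), and the other two had p = 0.3 and 0.5 (0.327 and 0.5 adjusted). By this test no ratio can pass a threshold of 0.05.

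Genes with the profile most like GABARAPL1 were sought over the 6 libraries, by Euclidean distance between log2(value + 1) profiles centred on their control means. The nearest were CREBRF, a regulator in the unfolded protein response (distance 0.117), CCNG2, which encodes cyclin G2 (0.13), and PAG1, a membrane adaptor (0.151). CREBRF had RPKM-like values of 3.55, 2.85 and 2.94 in controls and 7.81, 8.53 and 8.69 after amiodarone, and in both genes the first control was the highest of its group and the first amiodarone library the lowest. The nearest to ATG4A were FAM214A (0.11), TARBP1 (0.112) and WDR7 (0.125). TARBP1 had 17.78, 17.67 and 17.09 in controls and 22.62, 21.71 and 24.82 after amiodarone, with amiodarone replicate 3 highest as in ATG4A. The search ranked genes over all 6 libraries, so a shared order of replicates is what it selects for and is no separate result.

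The enzymes and scaffolds that attach ATG8 proteins to lipid did not move in 1 direction. Of 9 genes tested, 3 were higher, 3 lower and 3 not called, where 33.5% of all tested genes were higher and 44.8% lower. The median log2 fold change of the 9 genes was 0.08, beside -0.06 over all tested genes. ATG7, the activating enzyme, had RPKM-like values of 17.54, 17.79 and 18.77 in controls and 23.35, 22.8 and 24.38 after amiodarone (log2 fold change 0.37, limma adjusted p = 8.68e-06). ATG3, the conjugating enzyme that takes ATG8 over from ATG7, had 48.14, 44.32 and 43.75, and then 32.66, 31.68 and 35.25 (log2 fold change -0.44, adjusted p = 6.15e-06). In both genes the groups were apart, and the RNA of these enzymes, which act in successive steps, moved in opposite directions.

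ATG12, the ubiquitin-like part of the ligase, rose from a mean of 7.08 to 8.65 RPKM-like units (log2 fold change 0.26, limma adjusted p = 5.43e-04). ATG16L1, which places the ligase on the membrane, fell from 10.0 to 7.57 (log2 fold change -0.37, adjusted p = 3.43e-05), and WIPI2, the lipid-binding protein that recruits ATG16L1, fell from 21.5 to 17.1 (log2 fold change -0.32, adjusted p = 6.15e-05). TECPR1, an alternative partner of ATG12 and ATG5, was called higher at 4.89 and 5.64 (log2 fold change 0.17, adjusted p = 0.0313). Its call was lost under equal sums (0.09, adjusted p = 0.201), with no filter on low values (adjusted p = 0.0687), with a replicate block (adjusted p = 0.0505) and without control replicate 1 (adjusted p = 0.108), control replicate 3 (0.0804), amiodarone replicate 1 (0.0588) or amiodarone replicate 3 (0.12). ATG5, which joins ATG12 in the ligase, had means of 15.6 and 16.5, ATG10, the enzyme that joins them, 1.05 and 1.25, and ATG16L2, a relative of ATG16L1, 38.0 and 38.9, none of them called. The split of calls was 5 higher and 3 lower with the median of ratios, and 2 higher and 3 lower with equal sums.

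Proteins that bind ATG8 through an LC3-interacting motif were tested for 28 of 30 genes. Of these 12 were higher, 6 lower and 10 not called, where 78.3% of all tested genes were called (33.5% higher, 44.8% lower). More partners were called with the median of ratios and with equal sums, as given below, so no shortfall is read from this count. The median log2 fold change of the tested partners was 0.09. OPTN and TP53INP1 were under the filter. The 4 with the smallest adjusted p among those higher were SQSTM1, the receptor p62 (206 to 439 RPKM-like units), CCPG1, a receptor for the endoplasmic reticulum (26.6 to 73.6), TAX1BP1, a receptor for ubiquitin-tagged cargo (39.1 to 64.2), and EPG5, a tether that helps autophagosomes fuse with lysosomes (3.19 to 7.15). Their adjusted p-values ran from 1.56e-11 to 3.37e-08 (limma). CCPG1 shares 38.7% of its exonic bases with the same-strand gene DNAAF4-CCPG1, and 20.7% of those of SQSTM1 lie opposite MRNIP.

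The 4 lower partners with the smallest adjusted p were BNIP3 and BNIP3L, receptors on mitochondria, ATG13, a subunit of the initiating kinase complex, and FYCO1, an adaptor for transport along microtubules. BNIP3 had RPKM-like values of 39.31, 38.89 and 39.71 in controls and 13.77, 14.52 and 13.83 after amiodarone, so every treated library was below every control (log2 fold change -1.42, limma adjusted p = 6.15e-11). BNIP3L fell from a mean of 21.95 to 16.24, ATG13 from 32.3 to 25.9 and FYCO1 from 4.53 to 2.95. With the median of ratios the partner calls were 17 higher and 4 lower, and with equal sums 12 higher and 10 lower.

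**Figure D4:**
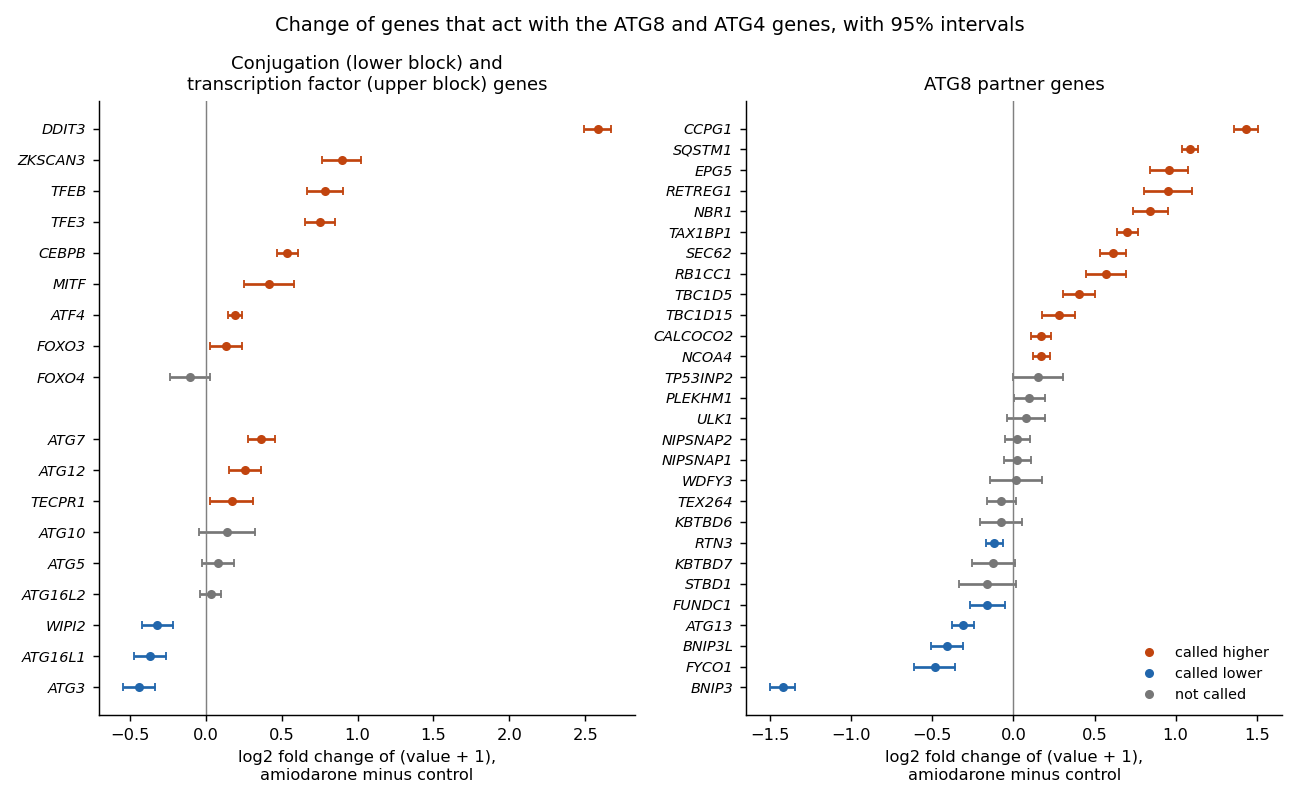
Log2 fold change of (value + 1), amiodarone minus control, with 95% intervals (x axis), for the tested genes of the conjugation and transcription factor lists (left) and the partner list (right), coloured by limma call. The conjugation genes divide into 3 higher, 3 lower and 3 not called, while 8 of 9 transcription factor genes are higher. The latter count includes MITF, which passed the filter through its amiodarone libraries only, and without it 7 of 8 are higher.

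Transcription factors known to act on ATG8 genes were higher in 8 of 9 tested cases and lower in 0, with 1 not called, where 33.5% of all tested genes were higher and 44.8% lower. The median log2 fold change was 0.54. With equal sums the split was 7 higher and 1 lower. DDIT3, the stress factor CHOP, had RPKM-like values of 19.88, 18.05 and 20.18 in controls and 120.87, 120.8 and 120.79 after amiodarone, a ratio of 6.24 (limma, adjusted p = 2.69e-12). Exons of MARS lie opposite 27.2% of its exonic bases. The lysosome and autophagy regulators TFEB and TFE3 went from means of 3.68 to 7.08 and from 22.5 to 38.7, and their relative MITF from 0.637 to 1.18. MITF passed the filter through its amiodarone libraries only, so it adds no support to the count. Without it 7 of 8 were higher, with a median of 0.64. ZKSCAN3, described as a repressor of autophagy genes, also rose, from 4.12 to 8.52.

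CEBPB, a leucine zipper factor, rose from 124 to 180 RPKM-like units, and ATF4, the translation-controlled stress factor, from 497 to 568. FOXO3, a forkhead factor, was called higher at 8.06 and 8.94 (log2 fold change 0.13, limma adjusted p = 0.0242). This call was lost under equal sums (0.05, adjusted p = 0.363) and without any 1 of control replicates 1, 2 and 3 (adjusted p = 0.0576, 0.0565 and 0.0510) or amiodarone replicates 2 and 3 (0.0523 and 0.0913). FOXO4 had means of 5.50 and 5.04 and was not called, and FOXO1, at 0.5 and 0.387, was under the filter.

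Motifs of such factors were sought on both strands in windows of 250 bases before 1 RefSeq start per gene (GRCh38.p14). Windows were found for 8 of the 10 members and for MAP1LC3C, and MAP1LC3A and ATG4D had none. These starts can differ from the outermost GENCODE 29 start, so the windows can lie inside the genes. Exons of the gene itself covered all 250 bases for MAP1LC3B, GABARAP and ATG4B, 199 for GABARAPL1, 123 for MAP1LC3B2, 110 for ATG4A, 28 for GABARAPL2 and 0 for ATG4C. The E-box CACGTG, present in 6.34% of all 35116 windows, and its longer form GTCACGTG, which contains it and was present in 2.16%, were in none of the members' windows. Neither was the forkhead motif GTAAACA (2.98% of all windows) or the composite element TGATGCAA (0.77%). A further motif, the cyclic AMP response element TGACGTCA, was chosen after the windows had been seen. The motif was in 1.65% of all windows, a share that cannot say how unusual a match is after such a choice. Among the members it was in the window of GABARAPL1 alone, with its first base 30 bases before the RefSeq start. That place is inside the span of the gene given above from GENCODE 29, which begins further upstream. The stretch is shown with the motif in capitals (chr12:10212837-10212864, plus strand), and a link to the RNA change of GABARAPL1 was not tested.
GABARAPL1: gctcgcggggTGACGTCAcagcccgacg
A match of letters is a description and not evidence of binding.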

How the data were processed

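RNA of 3 control and 3 amiodarone-treated HL-60 libraries was turned into stranded mRNA libraries, per the labels. GRCh38.p12, STAR 2.5.3a, featureCounts and fastp 0.23.4 appear, without roles, in the submitters' processing notes. Annotation, strand use and multi-mapping rules: not given in the sources used here. The deposited values are RPKM-like, with a unit not named per the file headers. Steps between low values gave the depth estimate, with 54.7% to 66.4% of values within 0.15 of a whole step, so whole reads were not recovered. Values were used as deposited, with a pseudocount of 1, in limma 3.58.1 (R 4.3.3; lmFit, eBayes with trend; 4 residual and 6.59 prior degrees of freedom), which understates folds of low genes. Alternatives changed the pseudocount, scaling (median of ratios, equal sums, unweighted trimmed mean of M-values or TMM), filter, trend, replicate block or left out 1 library, 15 in all. Ratios are of group means of the values. The limma step was also run on simulated data, with no filter on low values and far fewer changed genes than were called here. Overlaps come from GENCODE 29 (GRCh38). Members, lists, the rule for named genes (all members and the conjugation and transcription factor lists, 4 partners per direction by adjusted p, 3 nearest profiles) and tests were chosen with earlier results of these data known. Protein sequences were not used here. The likeness search took the ATG8 and the ATG4 gene with the largest absolute log2 fold change.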

Additional observations from a re-analysis of the deposited data

How the results depend on the processing

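GABARAPL1, MAP1LC3B, ATG4A and ATG4B kept their direction and their call in all 15 alternatives, with log2 fold changes of 1.15 to 1.32, 0.38 to 0.53, 0.28 to 0.44 and -0.46 to -0.30. The numbers of genes called in each list and over all genes stayed within 1.5 times their value, although the split by direction moved with the scaling. Ratios of members kept their direction with another pseudocount and with each library left out. For pairs without overlap between groups, leaving out a library cannot turn the direction, so that check decides nothing for them. Leaving out 1 of 3 libraries cannot move a mean share by as much as its SD. That check of the ATG8 shares therefore decides nothing, and the ATG4 shares were not checked in this way. Neither ratios nor shares depend on the scaling between libraries. Shares, the order of genes and the size of a ratio do depend on the gene lengths behind the values, which are not given. For GABARAPL2, for example, the main transcript has 1002 bases and all exons together 3034. The log2 difference of a ratio between groups does not depend on these lengths. GABARAP was called with the median of ratios (0.128), TMM factors (0.084) and no filter on low values (0.058), and turned to -0.033 with equal sums; leaving out 1 library at a time gave 0.046 to 0.069. GABARAPL2 was 0.086 with the median of ratios and -0.072 with equal sums, and -0.004 to 0.043 with 1 library left out. ATG4C turned to -0.030 with equal sums, and ATG4D to 0.037 with the median of ratios. Also with equal sums, ATG5 turned to -0.005, ATG16L2 to -0.056, ULK1 to -0.007, NIPSNAP1 to -0.065, NIPSNAP2 to -0.062 and WDFY3 to -0.034. NIPSNAP1 was -0.002 without amiodarone replicate 2, and WDFY3 was -0.024 without control replicate 1, -0.009 without amiodarone replicate 2 and up to 0.045 without the others. The scalings themselves moved the median of all tested genes from -0.06 to 0.001 (median of ratios), -0.04 (TMM) and -0.14 (equal sums), so the direction of smaller changes depends on the scaling; the cause of the other shifts was not tested. Replicate numbers did not pair the libraries (correlations of deviations -0.155, -0.018 and -0.023), and a replicate block changed no member's call (GABARAP 0.058, adjusted p = 0.0877) but ended that of TECPR1 (0.171, adjusted p = 0.0505). Depth limits MAP1LC3A and MAP1LC3B2, at 0 to 8 reads.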
